A study of Mus musculus with 18 samples.

Results

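The cytosolic ribosomal proteins are the proteins of the cell's main ribosomes, and their mRNAs were followed here through 3 days of mESC differentiation and in GFP+ mESCs lacking either of 2 mTORC1 regulators. Members were the genes of the deposited expression table with a symbol that starts with Rpl or Rps and a digit, together with *Rplp0*, *Rplp1*, *Rplp2* and *Rpsa*, leaving out the Rps6k kinases and every symbol with -ps. This gave 88 of 24369 genes. By their usual roles, 43 encode proteins of the large (60S) subunit, 31 encode proteins of the small (40S) subunit, 3 encode the acidic stalk, 10 are paralogs or retrogenes of these genes, and 1, *Rps19bp1*, encodes a nucleolar protein that binds Rps19 and is no part of the ribosome.

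RNA-seq of 18 libraries was analysed, all from E14-derived mESCs with a destabilised GFP at *Rex1* and Cas9 under the EF1α promoter at *Rosa26* (genotype Rex1GFPd2-Cas9). The time course had 3 libraries at each of days 0, 1, 2 and 3 of differentiation of unmodified Rex1GFPd2-Cas9 cells. The sorted set had 2 libraries each of GFP+ cells with the parental genotype (wild-type), Rex1GFPd2-Cas9 Nprl2-/- (*Nprl2* KO) and Rex1GFPd2-Cas9 Tsc2-/- (*Tsc2* KO), kept in serum and LIF on feeder fibroblasts. Each KO line came from picked colonies with a critical exon removed on both alleles, and the labels do not tell whether libraries of a group are separate clones or cultures, so the p-values measure only the spread between these libraries.

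A cytosolic ribosome holds about equal numbers of nearly all of its proteins, and their genes are among the most strongly transcribed in dividing cells. Their mRNAs mostly begin with a C followed by a run of pyrimidines, the 5′ terminal oligopyrimidine (TOP) motif, through which mTORC1 and Larp1 control translation and storage of these mRNAs. Nprl2, a subunit of Gator1, and Tsc2 both restrain mTORC1, the former in the response to amino acids and the latter downstream of growth factors. A few members have paralogs used in particular tissues, such as *Rpl10l* and *Rpl39l* in the testis and *Rpl3l* in striated muscle.

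The annotated starts of 8 members are shown, 6 of them lower in *Tsc2* KO, with and without a pyrimidine run, and 2 of them paralogs that fell to a few percent during differentiation. Each line runs from 10 bases before to 20 bases from the RefSeq start (GRCm38.p6), with any pyrimidine run of at least 5 bases that opens with C within 5 bases of the start in capitals.
Rps6: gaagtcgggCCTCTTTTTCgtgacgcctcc
Rpl28: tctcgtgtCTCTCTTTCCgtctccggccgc
Rps26: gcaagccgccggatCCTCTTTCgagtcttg
Rpl22l1: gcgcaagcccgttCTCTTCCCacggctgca
Rpl4: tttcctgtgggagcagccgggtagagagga
Rpl11: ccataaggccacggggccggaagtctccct
Rpl10l: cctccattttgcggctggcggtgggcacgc
Rpl39l: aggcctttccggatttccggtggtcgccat
These windows lie on chromosome 4 from 86857348 to 86857377 (minus strand), chromosome 7 from 4792955 to 4792984 (plus), chromosome 10 from 128626487 to 128626516 (minus), chromosome 3 from 28805498 to 28805527 (plus), chromosome 9 from 64173377 to 64173406 (plus), chromosome 4 from 136053374 to 136053403 (minus), chromosome 12 from 66284382 to 66284411 (minus) and chromosome 16 from 10170218 to 10170247 (plus), in the order shown. Each covers the promoter's end and the first transcribed bases. *Rps6*, *Rpl28*, *Rps26* and *Rpl22l1* hold such a run, and *Rpl4*, *Rpl11*, *Rpl10l* and *Rpl39l* hold none at these annotated starts. RefSeq promoter sequences were found for 67 of the 88 members, with 79 starts. On the gene's own strand the run was present at 32 of these starts (40.5%), against 6027 of 32851 starts of all genes (18.3%). Among the 57 core members with a RefSeq promoter, 9 of 27 with the run fell in *Tsc2* KO (median log2 change -0.16) and 14 of 30 without it fell (median -0.20). Of all 13722 genes tested, 14.2% were lower in *Tsc2* KO, and their median was 0.005. A match describes letters at an annotated start, which may differ from the start used in these cells.

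The label fits the values. Of the 77 core members (60S, 40S and stalk), 70 had a mean above 1000 TPM (transcript abundance within a library, corrected for transcript length) in the time course and 71 did in GFP+ cells. The highest in both sets was *Rplp1*, at a mean of 7175 TPM in the time course and 7298 TPM in GFP+ cells. The lowest was *Rpl30*, at 47.2 and 130 TPM, a row whose sequence is shared with a more abundant copy described further on. Paralogs were less abundant, from *Rps27rt* with 0 estimated counts in every library to *Rps27l* at 1084 TPM.

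The libraries held 8610357 to 15305054 estimated counts. In the KO libraries the targeted genes were checked first. *Nprl2* was 6.0 and 6.5 CPM (counts scaled by TMM to a common library size) in *Nprl2* KO against 11.7 and 12.6 CPM in wild-type, and *Tsc2* was 63.7 and 67.3 CPM in *Tsc2* KO against 152 and 155 CPM. Reads per exon were not analysed here. The 8 pluripotency markers summed to between 5934 and 6206 CPM at day 0 and between 935 and 1173 CPM at day 3. *Nprl2* KO library 1 came from longer fragments than the other GFP+ libraries, with transcript length minus effective length of 228 bases against 170 to 184. In the time course this value was 179 in every library, and whether it was measured there is not given.

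Taken as a sum, ribosomal protein mRNA dipped at day 1 and was lower in *Tsc2* KO. At day 0 the members held 6.88%, 7.13% and 6.73% of the estimated counts of the 3 libraries. The shares were 6.18%, 6.27% and 5.96% at day 1, 7.14%, 6.83% and 6.96% at day 2, and 6.84%, 6.88% and 6.46% at day 3. All 3 day 1 libraries lay below all of the other 9, while the ranges of days 0, 2 and 3 overlapped. This separation is one of raw shares. On the TMM scale the median log2 level of the core members against the day 0 mean was -0.07, -0.06 and -0.14 at day 1. At day 3 it was -0.05, -0.05 and -0.17, so these 2 days overlapped. Among GFP+ libraries the share was 6.85% and 7.23% for wild-type, 6.54% and 7.2% for *Nprl2* KO, and 6.34% and 6.25% for *Tsc2* KO. Both *Tsc2* KO libraries were below both of either other genotype, and the *Nprl2* KO libraries lay on either side of wild-type library 1. On the per-length scale the share was 22.9% ± 0.602 of TPM at day 0 and 20.6% ± 0.333 at day 1 (SD, n = 3), and 22.7% ± 0.694 in wild-type and 20.6% ± 0.319 in *Tsc2* KO (SD, n = 2). These are bulk samples, in which fewer cells of a type and less RNA per cell cannot be told apart.

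**Figure D1:**
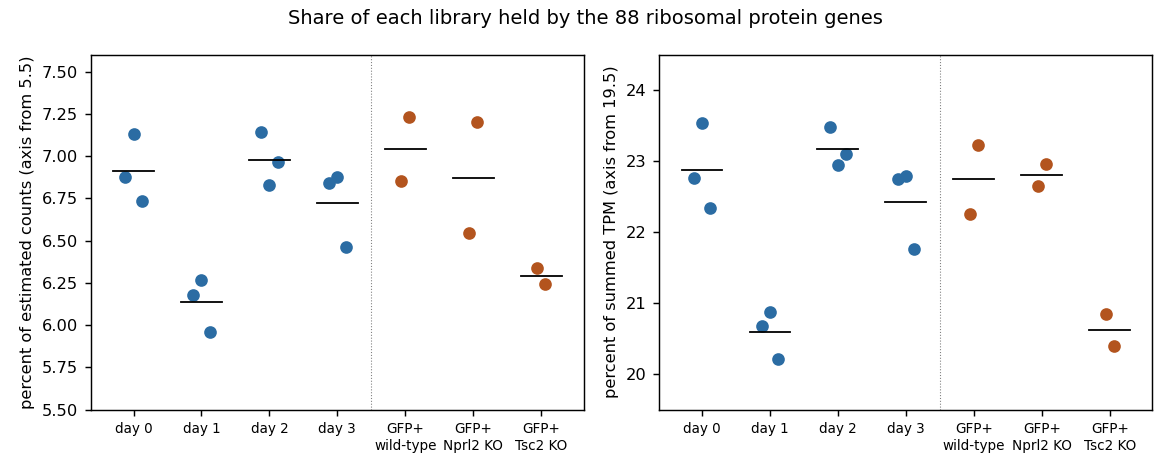
Share of each library held by the 88 members, as a percentage of estimated counts (left) and of summed TPM (right). Points are libraries, bars are group means, the vertical axes do not start at 0, and the day 1 and *Tsc2* KO libraries are the low ones, at 5.96% to 6.27% and 6.25% to 6.34% of counts.

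Genes were then tested one by one in edgeR (quasi-likelihood, p-values adjusted by Benjamini-Hochberg over every gene tested), with a threshold of 0.05. In GFP+ cells 86 members passed the filter on low counts, all but *Rpl3l* and *Rps27rt*, and in the time course 87 did, all but *Rps27rt*. Both KOs were compared with the same wild-type libraries and days 1, 2 and 3 with the same day 0 libraries, so these comparisons are not independent of each other.

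**Figure D2:**
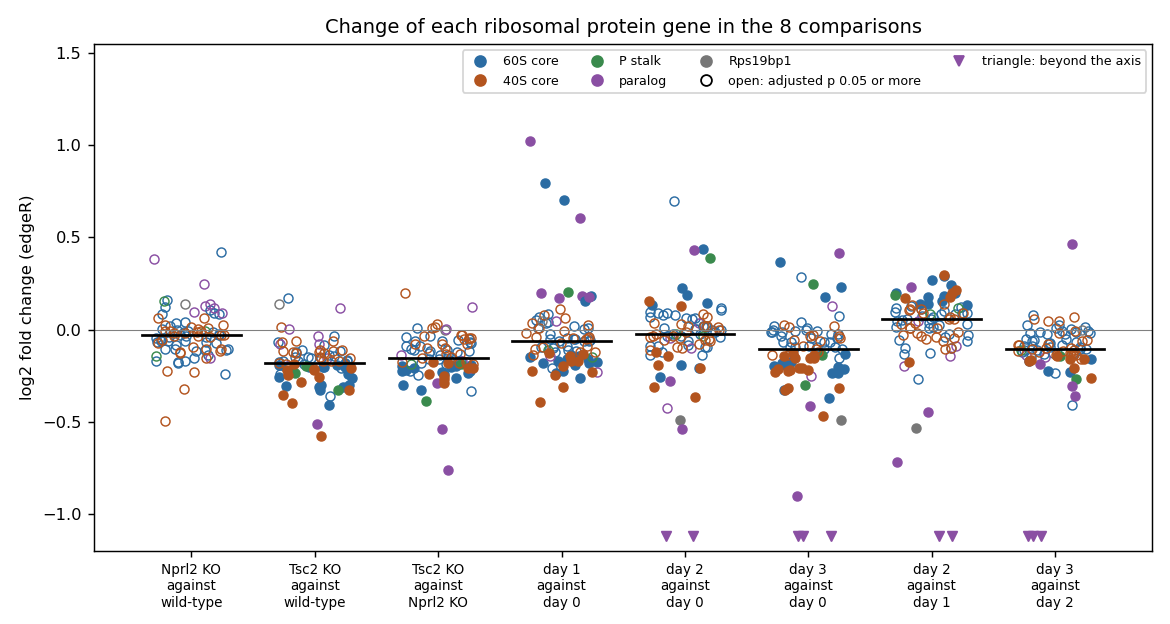
Log2 fold change of each tested member in the 8 comparisons, coloured by role; filled symbols passed the test, black bars are medians over the tested members and triangles lie beyond the axis. In *Tsc2* KO against wild-type the median was -0.18 with 35 filled symbols, all below 0, and from day 2 the paralogs *Rpl10l* and *Rpl39l* leave the axis.

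In *Tsc2* KO, ribosomal protein mRNAs were lower across both subunits. Of 86 members tested, 35 fell and none rose, where 29.1% of all 13722 genes passed the test, 14.9% higher and 14.2% lower. The falls comprised 20 of 43 genes of the 60S subunit, 11 of 31 of the 40S subunit, all 3 stalk genes and 1 of 8 paralogs. They ranged from -0.18 to -0.58 on the log2 scale, that is from 11.8% to 32.9% less mRNA, with a median of -0.25 among the 35. Over all 86 members the median was -0.18, against 0.005 over all genes, and 81 had a change below 0. Both *Tsc2* KO libraries lay below both wild-type libraries in 76 of the 86 members, where 32.3% of all genes did so, and above them in 2 (33.6% of all genes).

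The count rested on few libraries. It was smaller, and held only falls, when any wild-type or *Tsc2* KO library was left out. The median stayed between -0.14 and -0.23. With no filter on low counts 56 members fell. How many of all genes were called in these fits is not given here, so these counts cannot be read as particular to the members.

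*Rps27*, a 40S protein with a zinc finger, had the largest fall. Its level was 449 and 453 CPM in wild-type and 306 and 300 CPM in *Tsc2* KO, a log2 change of -0.58 ± 0.13 (SE, n = 2 against 2, adjusted p = 0.0138). In *Nprl2* KO it was 272 and 367 CPM, below wild-type in both libraries, without passing the test (-0.50 ± 0.13, adjusted p = 0.0681). The fall in *Tsc2* KO no longer passed the test when any of the 4 libraries was left out, with changes between -0.56 and -0.59.

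*Rpl28*, *Rps26* and *Rps20* also fell. *Rpl28*, a 60S protein, was 705 and 734 CPM in wild-type and 537 and 544 CPM in *Tsc2* KO (-0.41 ± 0.07, adjusted p = 0.000956). *Rps26*, which lines the mRNA exit channel of the 40S subunit, was 679 and 703 CPM against 517 and 532 CPM (-0.40 ± 0.08, adjusted p = 0.00492). For both genes the groups did not overlap, and the fall passed the test under all 10 alternatives with every library kept. *Rps20*, a protein of the 40S head, was 972 and 1099 CPM against 850 and 797 CPM (-0.33 ± 0.08, adjusted p = 0.0101).

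The acidic stalk recruits elongation factors to the ribosome, and its genes fell together in *Tsc2* KO. *Rplp0*, the stalk's base, was 2250 and 2391 CPM in wild-type against 2539 and 2626 CPM with *Nprl2* KO and 1964 and 1978 CPM with *Tsc2* KO. The 3 genotypes did not overlap, and the difference between *Tsc2* KO and *Nprl2* KO (-0.39 ± 0.06, adjusted p = 0.000358) was larger than that between *Tsc2* KO and wild-type (-0.24 ± 0.06, adjusted p = 0.0113). *Rplp1* fell by 0.33 ± 0.09 and *Rplp2* fell by 0.20 ± 0.06 on the log2 scale against wild-type. The call for *Rplp2* was lost in 3 of 10 alternatives.

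*Rps6*, the 40S protein that the mTORC1-dependent S6 kinases phosphorylate, was 1201 and 1303 CPM in wild-type against 1223 and 1271 CPM with *Nprl2* KO and 1098 and 1056 CPM with *Tsc2* KO (-0.22 ± 0.06 against wild-type, adjusted p = 0.0219). *Rpsa*, a 40S protein also known as a laminin receptor, was 2205 and 2313 CPM, 2140 and 2285 CPM, and 1958 and 1947 CPM in the same order (-0.21 ± 0.06, adjusted p = 0.0222). In both genes *Nprl2* KO overlapped wild-type and *Tsc2* KO lay below.

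Chromosome 1 was raised as a whole in *Tsc2* KO, with a median log2 change of 0.37 over 719 genes, and 3 members lie on it. They did not share that direction. *Rpl7* fell by 0.30 ± 0.07 on the log2 scale (adjusted p = 0.00701), from 1306 and 1407 CPM to 1118 and 1088 CPM. *Rpl31* was 603 and 604 CPM in wild-type against 531 and 546 CPM, and *Rpl37a* was 466 and 504 CPM against 412 and 408 CPM. Neither of these passed the test.

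**Figure D3:**
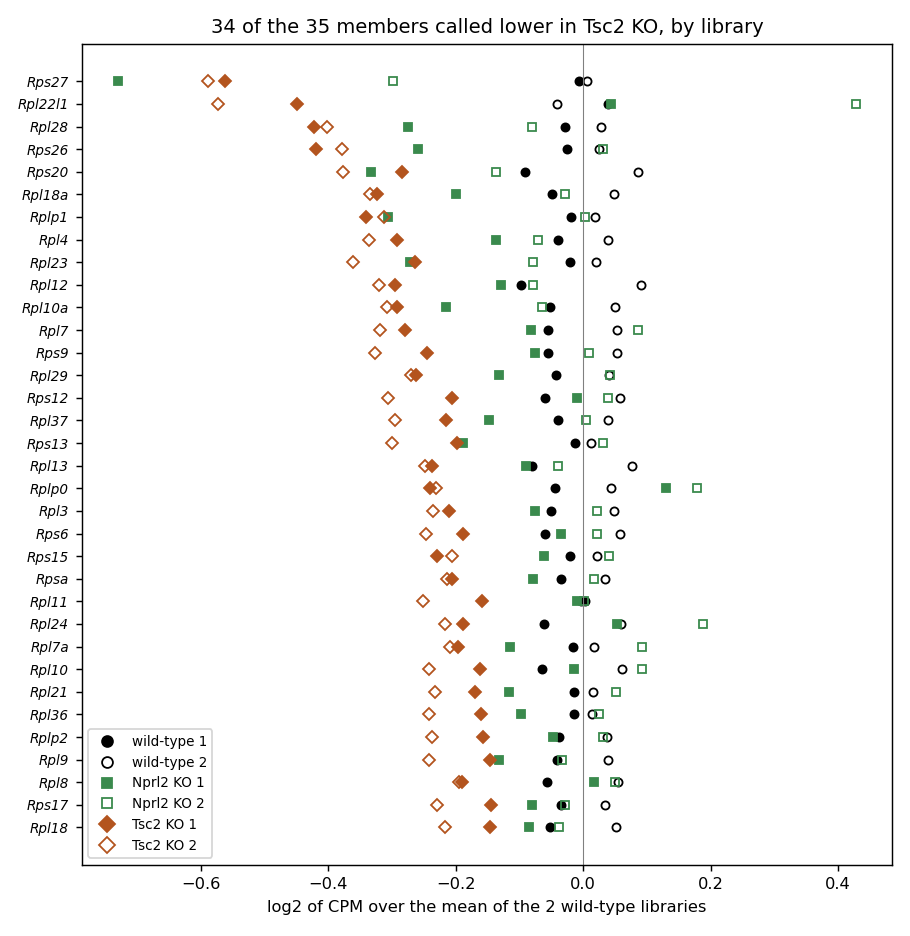
Level of 34 of the 35 members called lower in *Tsc2* KO in each GFP+ library, as log2 of CPM over the mean of the 2 wild-type libraries; filled and open symbols are libraries 1 and 2. The *Tsc2* KO libraries lie below both wild-type libraries in all 34 genes shown and below both *Nprl2* KO libraries in 31.

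In *Nprl2* KO no member passed the test, where 6.43% of all genes did, 2.78% higher and 3.65% lower. Its libraries lay wholly below wild-type in 13 of the 86 members and wholly above in 10, against 25.2% and 25.8% of all genes. At an unadjusted p of 0.05, 8 of 86 members passed, and DESeq2 called 1. The median over the members was -0.03 and their changes ran from -0.50 to 0.42. *Rps27* and *Rpl30* marked these ends. With the counts of a copy that shares its sequence added, as described below, *Rpl30* changed by -0.05. The calls depended on the processing, with 7 members without a filter on low counts, 6 after an offset for effective length and 5 with a replicate block. Some were also called when *Nprl2* KO library 2 was left out. How many of all genes were called in these fits is not given here. Over the core members library 1, the one with long fragments, had a median of -0.11 on the log2 scale against the wild-type mean and library 2 one of 0.03. *Rps28*, a small 40S protein, was 363 and 367 CPM in wild-type and 232 and 351 CPM in *Nprl2* KO, and *Rps29*, another, was 574 and 587 CPM against 404 and 588 CPM. Whether the fragment length of that library contributed was not tested.

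The test between the KOs gave 27 members lower in *Tsc2* KO than in *Nprl2* KO and none higher, where 34.2% of all genes passed, 16.6% lower and 17.5% higher in *Tsc2* KO. The libraries of *Tsc2* KO lay wholly below those of *Nprl2* KO in 53 members and wholly above in none, against 34.0% and 34.1% of all genes. The median was -0.16. *Rpl24*, a 60S protein, was 597 and 655 CPM with *Nprl2* KO and 504 and 495 CPM with *Tsc2* KO (-0.33 ± 0.07, adjusted p = 0.00274), and *Rpl7* differed by -0.30 ± 0.07 (adjusted p = 0.00513). Without *Nprl2* KO library 2 fewer members were called, some of them higher, with a median of -0.08. The count was also smaller without either *Tsc2* KO library and larger without *Nprl2* KO library 1. How many of all genes were called in these fits is not given here.

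The largest difference between the KOs was in *Rpl22l1*, the paralog of *Rpl22* whose splicing and level Rpl22 is known to repress. It was 80.6 and 76.2 CPM in wild-type against 80.8 and 105 CPM with *Nprl2* KO and 57.4 and 52.7 CPM with *Tsc2* KO. The change was -0.51 ± 0.12 against wild-type (adjusted p = 0.00877) and -0.76 ± 0.12 against *Nprl2* KO (adjusted p = 0.000588). The former was no longer called without wild-type library 1 or *Tsc2* KO library 2. *Rpl22* itself was 468 and 482 CPM in wild-type against 415 and 504 CPM with *Nprl2* KO and 459 and 421 CPM with *Tsc2* KO. In TPM, *Rpl22l1* stood at 110% ± 5.68 of *Rpl22* in wild-type against 149% ± 8.22 with *Nprl2* KO and 85.5% ± 1.14 with *Tsc2* KO (SD, n = 2), without overlap between genotypes. *Rpl10l* fell by 0.54 ± 0.10 and *Rpl36al* fell by 0.29 ± 0.07 on the log2 scale in *Tsc2* KO against *Nprl2* KO, and neither was called in a KO against wild-type.

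Over differentiation, the core genes changed by between -0.47 and 0.37 on the log2 scale by day 3. The paralogs *Rpl10l*, *Rpl39l*, *Rpl3l*, *Rps4l* and *Rpl22l1* lay outside this range. Its upper end was *Rpl34*, which changed by 0.12 with the counts of a copy added, as described below. At day 1, 24 members fell and 11 rose against day 0, where 60.9% of all genes passed the test, 30.7% lower and 30.1% higher. At day 2, 14 fell and 9 rose (66.6% of all genes, with 32.4% lower and 34.2% higher), and at day 3, 37 fell and 5 rose (70.9%, with 35.9% lower and 35% higher). The share of members that passed was below that of all genes at each day. The medians were -0.06, -0.02 and -0.11 at days 1, 2 and 3. From day 1 to day 2, 18 members rose and 6 fell (62.1% of all genes, with 32.5% higher and 29.6% lower), and from day 2 to day 3, 19 fell and 1 rose (31.5%, with 15.6% lower and 15.9% higher). The 3 libraries of a day lay wholly below day 0 in 43 members at day 1, 20 at day 2 and 45 at day 3, against 34.0%, 33.2% and 37.2% of all genes, and wholly above in 13, 13 and 6, against 33.8%, 34.7% and 36.3%. Day 2 lay wholly above day 1 in 32 members and below in 8 (35.4% and 33.0% of all genes), and day 3 lay wholly below day 2 in 38 and above in 1 (21.6% and 21.7%).

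The balance of these calls depended on scaling. With limma on log2(TPM + 1), 53 fell and 5 rose at day 1, 13 fell and 17 rose at day 2, 27 fell and 13 rose at day 3, and 58 rose and 5 fell from day 1 to day 2. With upper-quartile scaling, 34 fell and 9 rose at day 1, 12 fell and 18 rose at day 2, and 43 rose and 5 fell from day 1 to day 2. The day 2 median was 0.03 and 0.02 under these scalings, which also moved the median of all genes, from 0.01 to 0.07 and 0.05. From day 1 to day 2 the median of all genes moved from 0.02 to 0.10 with upper-quartile scaling and to 0.13 with limma on log2(TPM + 0.1). Relative to the median of all genes the members' median was between -0.06 and -0.08 at day 1, between -0.07 and -0.11 at day 3 in every alternative with all libraries, between -0.007 and -0.045 at day 2, and between 0.03 and 0.07 from day 1 to day 2. The fall at day 1 was called in 12 members when day 0 library 2 or day 1 library 3 was left out. The number that rose from day 1 to day 2 was 8 without day 1 library 3 and 10 without day 2 library 1. The number that rose by day 2 was 5 without day 0 library 1 or without day 2 library 1. Between days 2 and 3 the total was 9 without day 3 library 3 and 11 without day 2 library 1. How many of all genes were called under these scalings and without these libraries is not given here.

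Of the 60S genes, 13 of 43 fell and 4 rose at day 1, and 11 fell and 3 rose at day 3, shares at or below those of all genes (30.7% lower and 30.1% higher at day 1, 35.9% and 35% at day 3). Among the 40S genes, 11 of 31 fell at day 1 and 17 fell at day 3, and none rose at either day. The number of members that were lower at all of days 1, 2 and 3 was 7, namely *Rpl32*, *Rpl36a*, *Rps15*, *Rps18*, *Rps20*, *Rps28* and *Rps29*. Another 4 were higher at all of these days, *Rpl29*, *Rpl34*, *Rpl41* and *Rplp0*. *Rpl34* did so only without the counts of a copy that shares its sequence, as described below. For 28 members no day differed from day 0 by the test, *Rps6* among them.

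*Rps29*, a small zinc-binding 40S protein, showed the largest fall of a core gene by day 3. It was 557, 592 and 563 CPM at day 0, 512, 536 and 511 CPM at day 1, 490, 445 and 447 CPM at day 2, and 413, 421 and 403 CPM at day 3. Each day's libraries lay below those of the day before, and the change by day 3 was -0.47 ± 0.05 (adjusted p = 2.01e-07). *Rps20* took its fall at once. It was 989, 1072 and 963 CPM at day 0 and 818, 823 and 792 CPM at day 1, and it remained between 755 and 846 CPM at days 2 and 3 (-0.32 ± 0.06 by day 3, adjusted p = 4.54e-05).

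*Rpl13a*, a 60S protein that also acts in translational control of inflammatory mRNAs, was 1309, 1392 and 1262 CPM at day 0 and 1049, 1088 and 933 CPM at day 3 (-0.37 ± 0.06, adjusted p = 1.88e-05). *Rpl32*, a 60S protein, was 748, 802 and 722 CPM at day 0 and 624, 620 and 564 CPM at day 3 (-0.33 ± 0.06, adjusted p = 5.26e-05). *Rps28* was 389, 429 and 380 CPM and then 322, 326 and 304 CPM (-0.33 ± 0.06, adjusted p = 4.27e-05). In each of the 3 genes the day 0 and day 3 libraries did not overlap.

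*Rplp0* ran against its partners. It was 1897, 1802 and 1928 CPM at day 0, 2211, 2170 and 2090 CPM at day 1, 2539, 2439 and 2399 CPM at day 2, and 2172, 2331 and 2173 CPM at day 3. All later libraries were above day 0, by 0.20 ± 0.05 at day 1, 0.39 ± 0.05 at day 2 (adjusted p = 1.12e-06) and 0.25 ± 0.05 at day 3 (adjusted p = 0.000206). *Rplp1*, by contrast, fell by 0.14 ± 0.05 and *Rplp2* fell by 0.30 ± 0.07 on the log2 scale by day 3. The 3 stalk genes thus moved in opposite directions over time and in the same direction in *Tsc2* KO.

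*Rpl41*, the smallest ribosomal protein, was 810, 821 and 804 CPM at day 0 and between 868 and 996 CPM at all later days (0.23 ± 0.05 by day 3, adjusted p = 0.000606). *Rpl29*, a basic 60S protein, was 461, 464 and 485 CPM at day 0 and between 514 and 555 CPM afterwards (0.18 ± 0.05 by day 3, adjusted p = 0.0039). Neither overlapped day 0 at any later day.

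*Rps15a*, a 40S protein, was lowest at day 1. It was 404, 427 and 397 CPM at day 0, 316, 323 and 295 CPM at day 1, 381, 410 and 356 CPM at day 2, and 418, 432 and 351 CPM at day 3. The change was -0.40 ± 0.07 at day 1 (adjusted p = 0.000108) and 0.30 ± 0.07 from day 1 to day 2 (adjusted p = 0.00161), and it was -0.41 ± 0.07 at day 1 with the counts of 2 copies that share sequence with it added. Other large falls at day 1 were those of *Rpl12* (-0.26 ± 0.06), *Rps18* (-0.25 ± 0.06) and *Rpl26* (-0.23 ± 0.06), and from day 1 to day 2 *Rpl39* (0.29 ± 0.12), *Rpl38* (0.27 ± 0.06) and *Rpl22* (0.24 ± 0.05) rose, each without overlap.

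*Rpl30* and *Rpl34* had the largest rises of core genes at day 1, 0.80 ± 0.29 (adjusted p = 0.0329) and 0.71 ± 0.13 (adjusted p = 0.000139), and both share sequence with a copy that has far more counts. *Rpl30* had between 6.3 and 16.9 CPM over the time course, while its copy *Gm12191*, with which it shares 287 words of 31 bases, had between 456 and 565 CPM. *Rpl34* averaged 96.1 TPM and *Rpl34-ps1*, with 262 shared words, 2126 TPM. With the counts of gene and copy added together, the day 1 change was 0.00 ± 0.05 for *Rpl30* (adjusted p = 0.989) and 0.16 ± 0.07 for *Rpl34* (adjusted p = 0.0568). The combined *Rpl34* was 0.30 ± 0.07 higher at day 2 (adjusted p = 0.00124) and did not pass the test at day 3 (0.12 ± 0.07, adjusted p = 0.159). The combined *Rpl30* was lower at day 3 (-0.18 ± 0.05, adjusted p = 0.00707). In all, 35 of the 88 members shared at least 50 such words with another gene, so reads of these could be divided between rows.

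Most of the tested paralogs were higher at day 1 and lower at day 3. At day 1, 6 of 9 tested rose and none fell, where 30.1% of all genes rose and 30.7% fell. At day 2, 1 rose and 4 fell (34.2% and 32.4% of all genes), and at day 3, 1 rose and 6 fell (35% and 35.9%). *Rpl22l1*, *Rpl3l*, *Rps27l* and *Rpl37rt* did not follow this course, as described below. The named paralogs below share fewer than 50 words of 31 bases with another measured gene, except *Rpl22l1*, *Rpl7l1*, *Rpl37rt* and *Rps27rt*.

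*Rpl10l*, an intronless copy of the X-linked *Rpl10* that lies on chromosome 12 from 66283379 to 66284401 (GRCm38.p6), was 55.4, 58.8 and 49.7 CPM at day 0, 84.4, 76.5 and 88.6 CPM at day 1, 9.0, 11.3 and 6.5 CPM at day 2, and 1.4, 1.9 and 1.5 CPM at day 3. It rose by day 1 (0.60 ± 0.11, adjusted p = 0.000111) and then fell below every earlier library at days 2 (-2.61 ± 0.13, adjusted p = 1.1e-11) and 3 (-5.11 ± 0.17, adjusted p = 3.52e-14, all against day 0). Its day 3 libraries held 66 counts in all against 2195 at day 0, so that 2.88% of the day 0 level was left (95% exact binomial interval 2.22% to 3.67%, for counting error only). Per length it stood at 3.43% ± 0.310 of *Rpl10* at day 0, 5.12% ± 0.646 at day 1 and 0.0991% ± 0.0166 at day 3 (SD, n = 3). *Rpl10* itself was not called at any day.

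*Rpl39l*, a paralog of the X-linked *Rpl39* that lies on chromosome 16 from 10170197 to 10174911, followed the same course. It was 15, 13.9 and 16.6 CPM at day 0, 32.3, 31.3 and 28.5 CPM at day 1, 2.2, 2.8 and 1.6 CPM at day 2, and 0.5, 0.1 and 0.3 CPM at day 3. The rise at day 1 was 1.02 ± 0.13 (adjusted p = 1.82e-06) and the fall by day 2 was -2.77 ± 0.18 (adjusted p = 7.6e-11). At day 3 only 14 counts were found in the 3 libraries against 604 at day 0, or 2.22% of the day 0 level (interval 1.21% to 3.75%). *Rpl39* was not called against day 0 at any day. In GFP+ cells *Rpl39l* was 50.3 and 37.9 CPM in wild-type against 36.0 and 43.4 CPM with *Nprl2* KO and 48.6 and 38.2 CPM with *Tsc2* KO, with full overlap.

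*Rpl3l*, the striated muscle form of *Rpl3*, was near the limit of detection. It had 15, 21 and 9 counts at day 0, 13, 12 and 12 at day 1, 9, 15 and 8 at day 2, and 0, 2 and 2 at day 3. The day 3 level was 8.50% of day 0 with a wide interval (2.22% to 23.3%). Its TPM never exceeded 0.0780% of that of *Rpl3*.

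*Rps4l*, an autosomal relative of the X-linked *Rps4x*, was 393, 385 and 417 CPM at day 0, 448, 449 and 454 CPM at day 1, 300, 267 and 256 CPM at day 2, and 191, 234 and 216 CPM at day 3. It rose by 0.18 ± 0.07 at day 1 (adjusted p = 0.0339) and was 0.90 ± 0.07 lower than day 0 by day 3 (-0.90, adjusted p = 1.03e-09). Per length it went from 23.5% ± 1.10 of *Rps4x* at day 0 to 14.7% ± 1.36 at day 3 (SD, n = 3). *Rpl7l1*, a relative of *Rpl7*, had a similar but smaller course, with 264, 275 and 280 CPM at day 0, 315, 309 and 298 CPM at day 1 and 203, 209 and 202 CPM at day 3 (0.17 ± 0.05 at day 1 and -0.42 ± 0.05 at day 3, adjusted p = 0.011 and 1.42e-06).

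*Rps27l* was highest at day 2 and *Rpl22l1* at day 3, when *Rpl10l*, *Rpl39l* and *Rps4l* were below day 0. *Rps27l*, a paralog of *Rps27* that p53 induces, was 145, 161 and 147 CPM at day 0, 184, 182 and 154 CPM at day 1, 218, 202 and 192 CPM at day 2, and 171, 174 and 151 CPM at day 3. All day 2 libraries were above day 0 (0.43 ± 0.08, adjusted p = 5.82e-05), and day 3 overlapped it. *Rpl22l1* was 77.1, 68.0 and 69.3 CPM at day 0, 79.1, 71.8 and 56.6 CPM at day 2, and 101, 95.8 and 89.2 CPM at day 3, above all earlier libraries (0.42 ± 0.10 against day 0, adjusted p = 0.000882). Its level per length went from 104% ± 8.94 of *Rpl22* at day 0 to 146% ± 4.81 at day 3 (SD, n = 3).

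*Rpl36al*, a paralog of the X-linked *Rpl36a*, rose by 0.18 ± 0.06 at day 1 and fell by 0.15 ± 0.06 on the log2 scale by day 3 against day 0, the latter called in 5 of 10 alternatives. *Rpl37rt*, a retrogene that shares 39.4% of its words with *Rpl37* and was placed with the paralogs after the table had been seen, was called in no comparison. *Rps27rt* had 0 estimated counts in all 18 libraries. It shares 315 of its 344 words (91.6%) with the far more abundant *Rps27*. Its reads could thus be assigned to *Rps27*, and the value of 0 sets no upper limit on its level. *Rps19bp1*, the member outside the ribosome, was 33.5, 36.9 and 36.2 CPM at day 0, 36.0, 35.3 and 38.8 CPM at day 1, 24.8, 26.8 and 24.4 CPM at day 2, and 24.8, 26.1 and 25 CPM at day 3. It fell between days 1 and 2 by 0.54 ± 0.08 on the log2 scale (adjusted p = 8.55e-06).

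**Figure D4:**
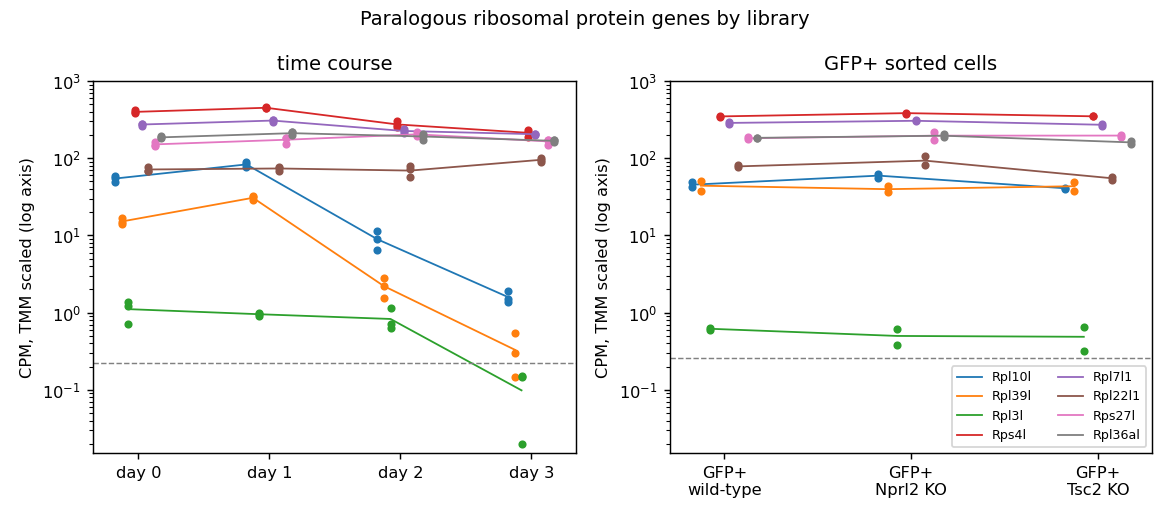
Level of 8 paralogs in each library, in CPM on a log axis, with lines through group means and a dashed line at 3 counts per library; a library at 0 is drawn at 0.02. *Rpl10l* goes from 49.7 to 58.8 CPM at day 0 to 1.4 to 1.9 CPM at day 3 and *Rpl39l* drops beside it, while in GFP+ cells *Rpl22l1* is lowest in *Tsc2* KO, at 57.4 and 52.7 CPM.

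Other genes of ribosome production were counted from lists written for this tissue. Over all genes the shares higher and lower were 14.9% and 14.2% in *Tsc2* KO, 30.1% and 30.7% at day 1, and 35% and 35.9% at day 3. Ribosomal proteins with other names include *Fau*, which encodes eS30 fused to a ubiquitin-like protein, and *Gnb2l1* (Rack1). Both fell in *Tsc2* KO, *Fau* by 0.36 ± 0.07 on the log2 scale (adjusted p = 0.00164), from 481 and 490 CPM to 375 and 381 CPM, and *Gnb2l1* by 0.28 ± 0.06 (adjusted p = 0.00474).

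Of 14 other TOP mRNAs, mostly translation factors, 4 fell and 1 rose in *Tsc2* KO, with 29.1% of all genes called (median -0.17, against -0.19 for the core members). The largest fall was that of *Eif4b*, an initiation factor (-0.49 ± 0.07, adjusted p = 0.000173), followed by *Eef2*, the elongation factor of translocation (-0.38 ± 0.07, adjusted p = 0.00124). The rise was in *Gas5*, a noncoding TOP transcript that hosts snoRNAs (0.61 ± 0.11, adjusted p = 0.00546). At day 1, 6 of the 14 rose and 4 fell, and *Eef2* was 0.50 ± 0.05 above day 0 by day 3 (adjusted p = 1.46e-08).

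The assembly factors of the nucleolus rose at day 1, when 24 core members fell and 5 rose. Of 35 such genes, 25 rose and none fell at day 1 (median 0.30), and from day 1 to day 2, 25 fell and none rose (median -0.27). By day 3, 20 were below day 0 and 4 above. *Nhp2*, a protein of the snoRNPs that pseudouridylate rRNA, rose by 0.78 ± 0.08 at day 1 (adjusted p = 4.97e-08), and *Ddx21*, a nucleolar helicase, by 0.67 ± 0.09 (adjusted p = 7.24e-06). *Riok2*, a kinase of late 40S assembly, had the largest fall by day 3 (-0.85 ± 0.11, adjusted p = 8.49e-06). In *Tsc2* KO 15 fell and 2 rose (median -0.17), from *Mdn1*, a remodelling ATPase of the 60S precursor (-0.73 ± 0.12, adjusted p = 0.00364), to *Riok2* (0.39 ± 0.07, adjusted p = 0.00135). In *Nprl2* KO, 2 rose and none fell.

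RNA polymerase I, which transcribes the rRNA, had 7 of 12 genes higher and 1 lower at day 1 and 10 lower and 1 higher by day 3 (median -0.46). *Rrn3*, its initiation factor, was 0.77 ± 0.08 above day 0 at day 1 (adjusted p = 1.62e-07) and 0.61 ± 0.08 below it by day 3 (-0.61, adjusted p = 2.06e-06). In *Tsc2* KO 3 of the 12 fell and 1 rose, near the 29.1% of all genes called. The 77 mitochondrial ribosomal proteins, which belong to another ribosome, had 5 lower and 3 higher in *Tsc2* KO with a median of 0.00, 28 higher and 9 lower at day 1, and 42 lower and 16 higher by day 3.

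**Figure D5:**
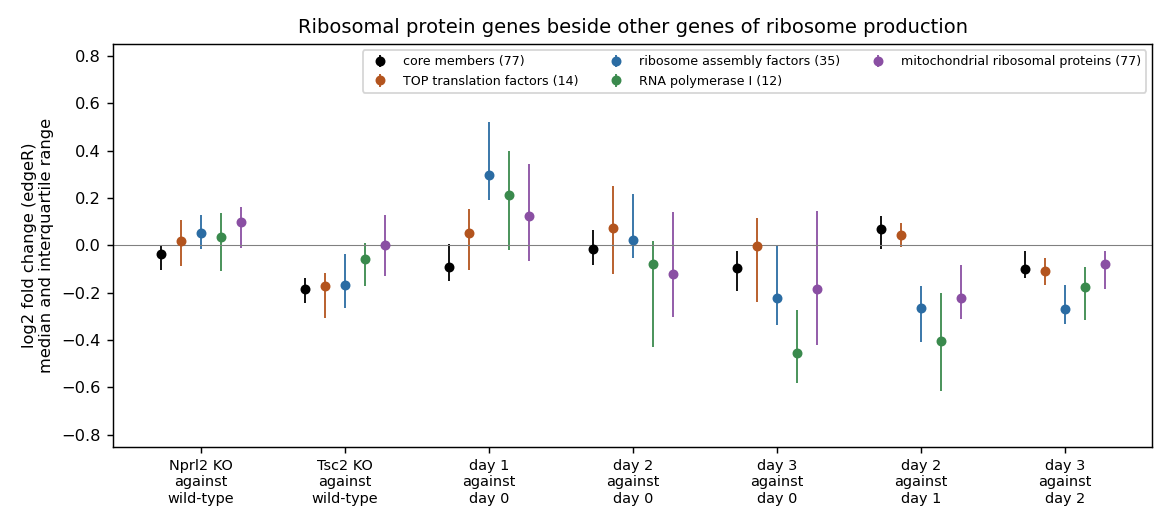
Median (point) and interquartile range (bar) of log2 fold changes over the tested genes of 5 lists, with the number of genes in GFP+ cells in brackets. At day 1 the assembly factors stand at a median of 0.30 and the core members at -0.09, and in *Tsc2* KO both lie below 0.

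Of the 13 genes that link mTORC1 to translation, 6 fell and 3 rose in *Tsc2* KO and 7 rose and 2 fell at day 1. *Larp1*, which binds TOP mRNAs, fell by 0.47 ± 0.06 on the log2 scale in *Tsc2* KO (adjusted p = 0.000177), rose by 0.52 ± 0.07 at day 1 (adjusted p = 2.45e-06) and changed by 0.00 ± 0.06 in *Nprl2* KO. *Mycn*, a transcription factor that drives ribosome genes, was 2.38 ± 0.08 lower in *Tsc2* KO (-2.38, adjusted p = 9.09e-09) and 0.71 ± 0.11 higher at day 1 (adjusted p = 4.26e-05). *Eif4ebp1*, the mTORC1-controlled repressor of eIF4E, was higher in both KOs, by 0.33 ± 0.06 in *Nprl2* KO (adjusted p = 0.00805) and 0.41 ± 0.06 in *Tsc2* KO (adjusted p = 0.000417). *Eef2k*, the kinase that inhibits eEF2, fell by 0.84 ± 0.15 on the log2 scale in *Tsc2* KO (adjusted p = 0.00155) and by 1.67 ± 0.11 at day 1 (-1.67, adjusted p = 8.78e-11). *Pdcd4*, an inhibitor of initiation that S6 kinase marks for decay, rose by 0.81 ± 0.12 in *Tsc2* KO (adjusted p = 0.000306). *Myc* rose by 1.87 ± 0.31 at day 1 (adjusted p = 0.000611) and *Rps6kb1*, which encodes S6 kinase 1, by 0.68 ± 0.07 (adjusted p = 4.23e-08). *Mtor* fell by 0.28 ± 0.08 on the log2 scale in *Tsc2* KO (adjusted p = 0.016).

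Markers of cell state moved with these comparisons. In *Tsc2* KO 5 of 8 pluripotency markers rose and none fell, with summed levels of 5035 and 5324 CPM against 4006 and 4198 CPM in wild-type, and in *Nprl2* KO 3 fell (3481 and 3760 CPM). At day 3 all 8 fell. The 12 feeder fibroblast markers summed to between 1712 and 1904 CPM in wild-type against 1752 and 1807 CPM with *Nprl2* KO and 1902 and 2505 CPM with *Tsc2* KO, and to between 1250 and 1459 CPM at day 0, 933 and 1035 CPM at day 1, 444 and 542 CPM at day 2, and 652 and 921 CPM at day 3. *Fn1* alone was 1094 and 1090 CPM in wild-type and 1053, 966 and 1106 CPM at day 0, most of the sum in both. In *Tsc2* KO *Fn1* and *Sparc* rose, and the other 8 of the 10 tested had changes below 0 without passing (median over the 10 of -0.72). *Col1a1*, the main fibroblast collagen, was 179 and 134 CPM in wild-type, 145 and 146 CPM with *Nprl2* KO, and 152 and 37.2 CPM with *Tsc2* KO, so that *Tsc2* KO library 2 was low. *Acta2* was 99.6 and 17.5 CPM in the *Tsc2* KO libraries. At day 0 *Col1a1* was 16.9, 7.8 and 7.7 CPM, far below its level in GFP+ wild-type. The sums thus do not compare feeder content between GFP+ cells and the time course. *Lum* had no count in any library of days 0, 2 and 3 and *S100a4* none at day 2, and in GFP+ cells single libraries were at 0 for both. The 8 endoderm markers summed to at most 55.9 CPM in GFP+ cells, with *Afp* at 0 in wild-type, and to between 155 and 201 CPM at day 0 against at most 70.5 CPM later. Their part in the changes of the ribosomal proteins was not tested.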

How the data were processed

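The authors deposited, per RefSeq transcript and library, estimated counts from kallisto (version 0.42.1 and build mm10 per the submitters' processing notes) and TPM, neither normalized between libraries, and their own DESeq2 comparisons, which were not used. GFP+ libraries were made with a stranded mRNA kit and sequenced with paired ends. How the time-course libraries were made is not given in the sources used here. Transcripts were summed to genes with RefSeq names of GRCm38.p6 (33713 of 34079 transcripts) and GENCODE M21 (192), and rounded. In the deposited table of TPM per gene, 87 or 88 of the 88 members matched these sums within 0.1% in each library.

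edgeR 4.0.16 in R 4.3.3 was used with TMM, its filter on low counts, robust fits, the quasi-likelihood test and adjustment by Benjamini-Hochberg (threshold 0.05). The 6 GFP+ libraries were fitted together and the 12 time-course libraries together. Errors of fold changes are SE. CPM uses TMM library sizes, and 3 counts correspond to 0.196 to 0.348 CPM. The fit was tested on simulated data. No 2 libraries agreed within sampling noise (mean chi-square per gene 1.82 or more). Shared words are stretches of 31 bases of GENCODE transcripts.

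Alternatives were DESeq2 1.42.0, upper-quartile scaling, no filter, a minimum of 10 counts per library throughout, a block for the replicate number, only the groups compared, limma 3.58.1 on log2(TPM + 1) or log2(TPM + 0.1), an offset for effective length, leaving out each library, and, chosen after seeing the data, adding copies that share sequence to their member. In the time course the length offset could only repeat the main fit, since length minus effective length was 179 bases in every library. It is still counted among the alternatives there. Values are printed for members by a rule: the 5 largest rises and falls called per comparison, the paralogs, *Rps6*, *Rpsa*, the stalk, those on chromosome 1, and the genes of mTORC1 to translation, with the largest changes of the other lists. *Rpl13a*, *Rpl32*, *Rps28* and *Rps29* were added after their values were seen. The members and lists were chosen with earlier results of these data known. Values are printed for some of the genes this rule selects, and 2 of them are not reported here.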

Additional observations from a re-analysis of the deposited data

How the results depend on the processing

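Of 867 repeats over the alternatives of 56 changes of single members, the largest called in each comparison, 839 kept their direction and call, 27 lost the call and 1 reversed, *Rpl30* at day 1, at -0.001 with its copy added. The repeats include the length offset in the time course, which could not differ from the main fit. The number of members called in *Nprl2* KO, 0, became 1 with DESeq2, upper-quartile scaling or at least 10 counts in every library, 7 with no filter, 4 with either limma fit and 6 with the length offset. With no filter, *Tsc2* KO gave 56 and *Tsc2* KO against *Nprl2* KO gave 42, and the length offset gave 45 for the latter. At day 1 limma gave 58 and 57 calls with the larger and smaller pseudocount. Between days 1 and 2, calls numbered 48 with upper-quartile scaling, 38 with at least 10 counts and 63 with limma, and between days 2 and 3, 34 with upper-quartile scaling and 13 with only these groups fitted. Medians moved to -0.13 at day 1 and -0.022 at day 3 with limma, to 0.033 at day 2 with upper-quartile scaling, and, between days 1 and 2, to 0.134 with upper-quartile scaling and 0.168 with limma. The cause was not tested. The replicate block gave 5 calls in *Nprl2* KO and 41 in *Tsc2* KO against *Nprl2* KO. Libraries with the same number had correlations of deviations from 0.085 to 0.164 in GFP+ cells, where 6 of 6 correlated best with their own number. With 2 libraries a group the deviations are mirror images, so that count follows from the positive correlations and adds nothing to them. In the time course the correlations ran from -0.113 to 0.133, and 8 of 12 libraries correlated best with their own number. No label ties equal numbers to a shared culture or day. Not every correlation was over 0.1, so the libraries were not treated as paired, and the values in GFP+ cells are only a hint of pairing.

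Leaving out single libraries, which assumes that a lone library varies like the others, gave 0 to 7 calls in *Nprl2* KO, 7 to 51 in *Tsc2* KO, 6 to 41 between the KOs, 21 to 41 at day 1, 18 to 26 at day 2, 33 to 45 at day 3, 16 to 28 between days 1 and 2 and 9 to 27 between days 2 and 3. The medians ranged from -0.097 to 0.026, -0.227 to -0.139, -0.224 to -0.081, -0.08 to -0.056, -0.039 to -0.012, -0.132 to -0.058, 0.027 to 0.073 and -0.128 to -0.06 in the same order. For the counts of members called under alternatives, the number of all genes called under the same setting is not given. These counts therefore cannot be read as particular to the members.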

Other observations

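The proteasome is another abundant machine of many subunits. Of 39 genes with a proteasome subunit symbol that were tested, 12 rose and 1 fell in *Nprl2* KO, where 2.78% of all genes rose and 3.65% fell. In *Tsc2* KO 17 rose and 5 fell (14.9% and 14.2% of all genes). At day 1, 28 rose and 1 fell (30.1% and 30.7%). By day 3, 4 were above day 0 and 17 below (35% and 35.9%). The symbols left out of the members for carrying -ps numbered 7, and they held so few counts that the members' share at day 0 was 6.98% with them and 6.91% without.

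Across the 77 core members, the log2 changes in *Nprl2* KO and at day 1, which share no library, had a Pearson r of 0.59 and a Spearman rho of 0.44. *Rpl30* marked the upper end in both. With the counts of its copy added it changed by -0.05 in *Nprl2* KO and by -0.001 at day 1. The correlation with such counts was not computed. For *Tsc2* KO and day 1 these were 0.23 and -0.01. Such genes share length, depth and base composition, and no test was made. Of the 35 members lower in *Tsc2* KO, 14 were among the 37 lower at day 3, which is 40% of the former and 37.8% of the latter, and 6 were among the 24 lower at day 1 (17.1% and 25%). Of all 87 members tested, 42.5% were lower at day 3 and 27.6% at day 1. The changes of the core members had Pearson correlations with log2 transcript length between -0.07 and 0.23 over the 8 comparisons.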
